A study of Rattus norvegicus with 3 samples.

Results

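The 6 Pax transcription factor genes of the dorsal spinal cord, Pax2, Pax3, Pax5, Pax6, Pax7 and Pax8, were read from a table of 26353 gene entries by their symbols, and each symbol matched 1 entry. Polyadenylated RNA was prepared from rat spinal commissural neurons, isolated at embryonic day 13 and kept in culture for 2 days. The 3 libraries, numbered 1, 2 and 3 after their replicate labels, form 1 group. There is no treated or control group, and no strain or genotype is named in the labels used here. The question the data can answer is which Pax genes such cultures express and in which proportions of FPKM. All levels are FPKM as computed by the authors, that is, fragments per kilobase of transcript corrected for the mapped fragments of a library. Ratios and shares between genes therefore rest on the transcript lengths used. The intervals given below cover the spread between libraries and not an error in those lengths. The labels do not say whether the replicates are separate cultures or animals, and p-values therefore cover no more than the sample-to-sample spread, possibly a technical one.

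Pax proteins bind DNA through a paired domain. Pax2, Pax5 and Pax8 form one subfamily, which keeps only part of a second DNA-binding domain, the homeodomain; Pax3 and Pax7 form another, and Pax6 belongs to a further one, with full homeodomains. In the embryonic cord Pax3 and Pax7 mark dividing progenitors of the dorsal part, Pax6 marks progenitors along much of the dorsoventral axis, and Pax2 appears as cells leave the cell cycle in several interneuron classes. Among these are dI4 and the later dorsal inhibitory neurons, in which Pax2 acts in the choice of the GABA transmitter type, and Pax5 and Pax8 are found in Pax2-positive inhibitory neurons. Outside the cord, Pax3 and Pax7 are known from neural crest and muscle precursors, Pax5 from B cells, and Pax2 and Pax8 from the kidney.

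The libraries were alike over all genes. Pearson's r of log2 values between libraries was 0.960 to 0.981 across 8363 named entries with a mean of at least 5 FPKM, which are not independent replicates. Identical values made up at most 0.323% of these entries, so no library was a copy of another. The libraries were counted as 3 samples, although this check cannot tell technical repeats from separate cultures. FPKM does not give the depth of a library, and no counting intervals were computed. The label was checked against neuronal and commissural genes. Tubb3, a neuronal tubulin, had 960 ± 70.2 FPKM (SD, n = 3), and Robo3 and Dcc, receptors of commissural axons, had 104 ± 25.4 and 62.6 ± 12.7 FPKM. Robo3 and Dcc were lowest in library 2, at 74.5 and 48.1 FPKM. Whole cultures were sequenced, so the cell source of each Pax transcript is not known, and more cells of a type and more RNA per cell cannot be told apart.

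Pax2 was the highest of the 6 genes. Pax2 (ENSRNOG00000014253) had 30.67, 31.26 and 31.42 FPKM in libraries 1, 2 and 3, and its mean of 31.1 ± 0.395 FPKM (SD, n = 3) lay above 84.9% of the 17611 entries with a value above 0 in at least 1 library. The 3 values were close together. Among the 3700 entries within 2-fold of its mean, 2.00% had a smaller standard deviation of log2 values.

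Pax8, the thyroid and kidney relative of Pax2, was the next highest and varied far more. Pax8 (ENSRNOG00000026203) had 21.24, 29.99 and 25.09 FPKM in libraries 1, 2 and 3, a mean of 25.4 ± 4.39 FPKM. It was lowest in library 1 and reached almost the level of Pax2 in library 2. Of the 4147 entries within 2-fold of its mean, 94.4% had a smaller standard deviation of log2 values.

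Pax5, the B cell member of the same subfamily, was expressed at a lower level. Pax5 (ENSRNOG00000024729) had 3.93, 3.30 and 4.84 FPKM in the 3 libraries, a mean of 4.02 ± 0.774 FPKM. Library 2, in which Pax8 was highest, gave the lowest Pax5 value. After the median of all tested entries was subtracted, the log2 deviation of library 2 from the mean of libraries 1 and 3 was -0.50 for Pax5, 0.27 for Pax8 and -0.09 for Pax2.

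Of the dorsal progenitor pair, Pax3 was expressed and Pax7 was low. Pax3 (ENSRNOG00000013670) had 10.95, 12.16 and 12.66 FPKM in libraries 1, 2 and 3, a mean of 11.9 ± 0.879 FPKM. Its spread was ordinary: 44.2% of the 4776 entries within 2-fold of its mean had a smaller standard deviation of log2 values. Pax7 (ENSRNOG00000018739) had 0.52, 0.41 and 0.23 FPKM, a mean of 0.387 ± 0.146 FPKM. Every Pax7 value was under 1 FPKM, and the highest was 2.26 times the lowest.

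Pax6, the progenitor factor, had a low level in all libraries. Pax6 (ENSRNOG00000004410) had 2.71, 3.16 and 2.70 FPKM, a mean of 2.86 ± 0.263 FPKM. Its values did not overlap those of Pax5, whose lowest value was 3.30 FPKM.

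Each entry was tested against a level of 1 FPKM with limma's moderated test, one-sided, on log2(FPKM + 0.1). Of the 6 Pax genes, 5 lay above 1 FPKM, and of all tested entries 63.7% did, so a count of this size is read against a high background. limma's adjusted p (Benjamini-Hochberg over all tested entries) was 1.45e-11 for Pax2, 2.10e-10 for Pax8, 1.46e-10 for Pax3, 3.04e-07 for Pax5 and 9.02e-07 for Pax6. For Pax7 limma's adjusted p was 1.00. The 5 calls held in every alternative with the level of 1 FPKM, while at a level of 5 FPKM 3 of the 6 passed, without Pax5 and Pax6. The median of the 6 means was 7.97 FPKM, beside 4.81 FPKM over all tested entries. Each count of list genes above 1 FPKM given below is read against the same 63.7%, and each list median against 4.81 FPKM.

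**Figure D1:**
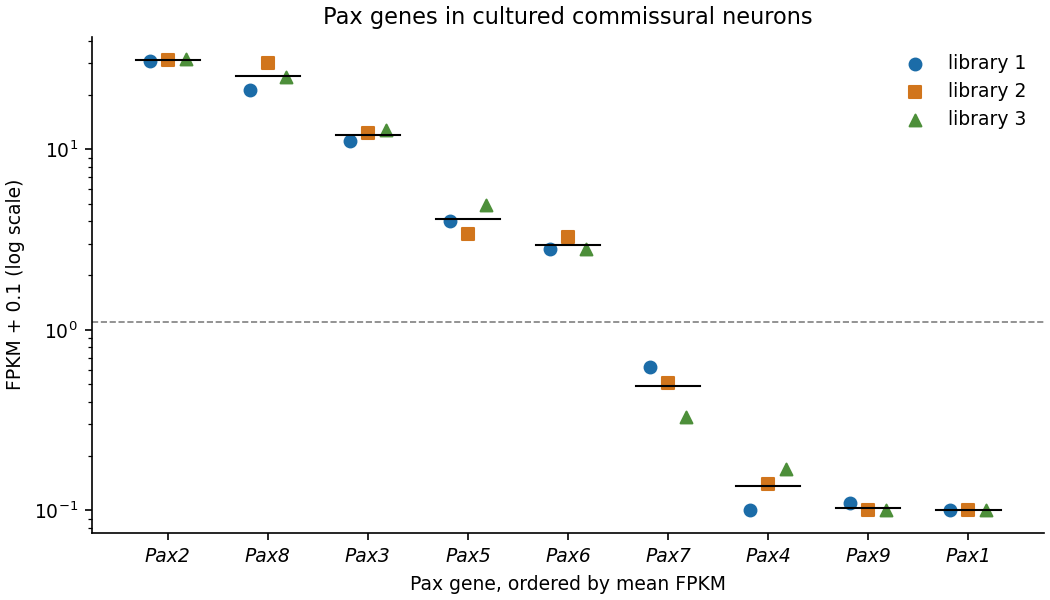
Values of the 6 Pax genes and of Pax4, Pax9 and Pax1 in each library, as FPKM + 0.1 on a log axis. Points are libraries, short lines are means of 3 libraries, and the dashed line marks 1 FPKM; the Pax2 points lie within 30.67 to 31.42 FPKM, and the Pax7 points lie below the line.

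The family members outside the 6 were at or near 0. Pax1, known from the skeletal precursors of the spine, was listed at 0 in each library. Pax9, its relative, was listed at 0.01, 0 and 0 FPKM, and Pax4, a pancreatic factor, at 0, 0.04 and 0.07. In limma's test 0 of the 3 lay above 1 FPKM, and 0 had an unadjusted p under 0.05.

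Most of the Pax signal came from 1 subfamily. Pax2, Pax5 and Pax8 together had 55.8, 64.6 and 61.4 FPKM in libraries 1, 2 and 3, which was 79.7% to 80.4% of the summed FPKM of the 6 genes. Pax3 and Pax7 made up 16.3% ± 0.557 and Pax6 3.77% ± 0.230. These shares hardly moved between libraries, although Pax8 and Pax5 did.

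**Figure D2:**
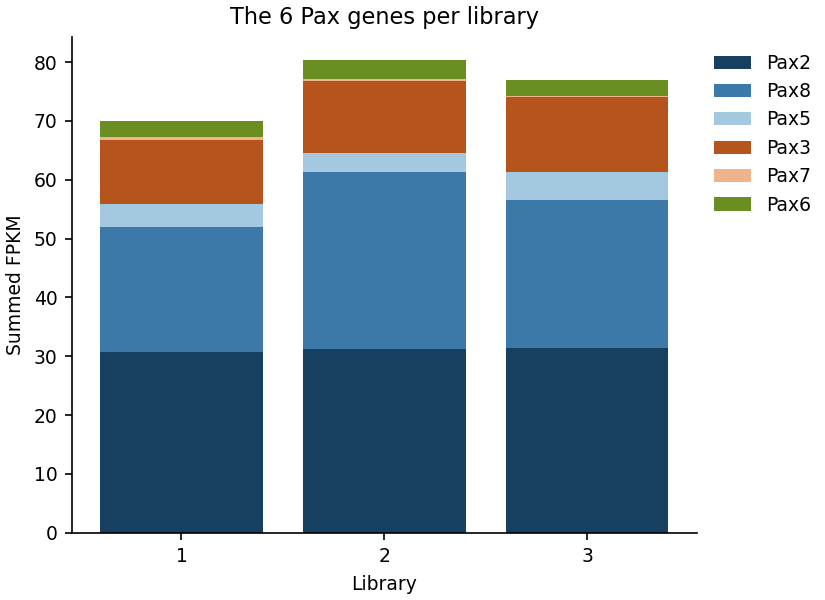
Summed FPKM of the 6 Pax genes in each library, stacked by gene, with the axis starting at 0. The blue segments (Pax2, Pax8 and Pax5) take 79.7% to 80.4% of each bar, and the Pax8 segment is smallest in library 1.

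The 6 genes were then compared with each other as ratios within each library, on the log2(FPKM + 0.1) scale, which understates ratios of low genes. In order of level they were Pax2, Pax8, Pax3, Pax5, Pax6 and Pax7, and this order was the same in all 3 libraries. limma was fitted to the ratios of all entries to 1 reference gene at a time, with adjustment over all entries of that fit. With Pax3, Pax5 or Pax7 as reference the prior of this fit had infinite degrees of freedom, so that the spread of the reference gene over 3 libraries was treated as known and the p-values could not be relied on. A second fit, added after the data were seen, used a prior that sums the variances of both genes. This summed prior is not part of limma, and its moderated test was computed with code written for the purpose. Of the 15 pairs, 14 differed with an adjusted p under 0.05 in the first fit and 15 in the second. In the first fit most entries differed from any of these genes. Of all entries, 95.6% differed from Pax2, 93.5% from Pax3, 90.7% from Pax5, 94.3% from Pax6 and 89.0% from Pax7. The shares for Pax3, Pax5 and Pax7 carry the limit of the infinite prior. With the summed prior, 29.6% of all entries were higher and 63.0% lower than Pax3. For the other genes no such share is given here. The count of 14 pairs is therefore close to the background of its fit, and the sizes of the ratios carry the description.

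Pax2 and Pax8 were the closest neighbours. The FPKM of Pax2 was 1.44, 1.04 and 1.25 times that of Pax8 in libraries 1, 2 and 3, higher in 3 of 3 libraries. The fitted ratio was 1.23-fold (95% interval 1.06 to 1.43, limma's adjusted p = 0.0133). Without library 1 the log2 ratio went from 0.30 to 0.19 and the call was lost (limma's adjusted p = 0.132). That fit gave Pax2 over Pax7 a limma's adjusted p of 1.52e-119, so its p-values could not be relied on either. The call was also lost with a plain variance prior (limma's adjusted p = 0.0620) and at a margin of 1.5-fold (limma's adjusted p = 1.00).

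Pax8 exceeded Pax3 by 2.11-fold (95% interval 1.77 to 2.50, adjusted p = 1.52e-05 by the moderated test with the summed prior). The FPKM ratios were 1.94, 2.47 and 1.98 in the 3 libraries. Pax3 exceeded Pax5 by 2.94-fold (2.38 to 3.64, adjusted p = 5.03e-06 by the moderated test with the summed prior), with FPKM ratios of 2.79, 3.68 and 2.62. Both ratios were largest in library 2.

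For Pax5 and Pax6 the call turned on the fit. Pax5 exceeded Pax6 by 1.45, 1.04 and 1.79 times in FPKM in libraries 1, 2 and 3, and the fitted ratio was 1.38-fold. With Pax5 as reference, the fit with the infinite prior, the pair did not pass (0.998 to 1.91, limma's adjusted p = 0.0565). It passed with Pax6 as reference (1.05 to 1.82, limma's adjusted p = 0.0311) and with the summed prior (1.05 to 1.82, adjusted p = 0.0288). The ratio was smallest in library 2, and without that library the log2 ratio was 0.67 rather than 0.47.

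Pax6 exceeded Pax7 by 6.26-fold (4.22 to 9.29, limma's adjusted p = 7.59e-05), and in FPKM by 5.21, 7.71 and 11.7 times. Between the relatives Pax3 and Pax7 the FPKM ratio was 21.1, 29.7 and 55.0 in libraries 1, 2 and 3. The fitted ratio was 25.5-fold (17.2 to 37.8, adjusted p = 2.20e-07 by the moderated test with the summed prior). The ratios to Pax7 depend on the pseudocount, since Pax7 is low: the log2 ratio of Pax3 to Pax7 was 4.67 with a pseudocount of 0.1, 4.98 with 0.01 and 3.22 with 1. Pax2 was 2.60-fold above Pax3 (2.33 to 2.91), 7.66-fold above Pax5 (6.36 to 9.23) and 10.6-fold above Pax6 (9.01 to 12.4).

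**Figure D3:**
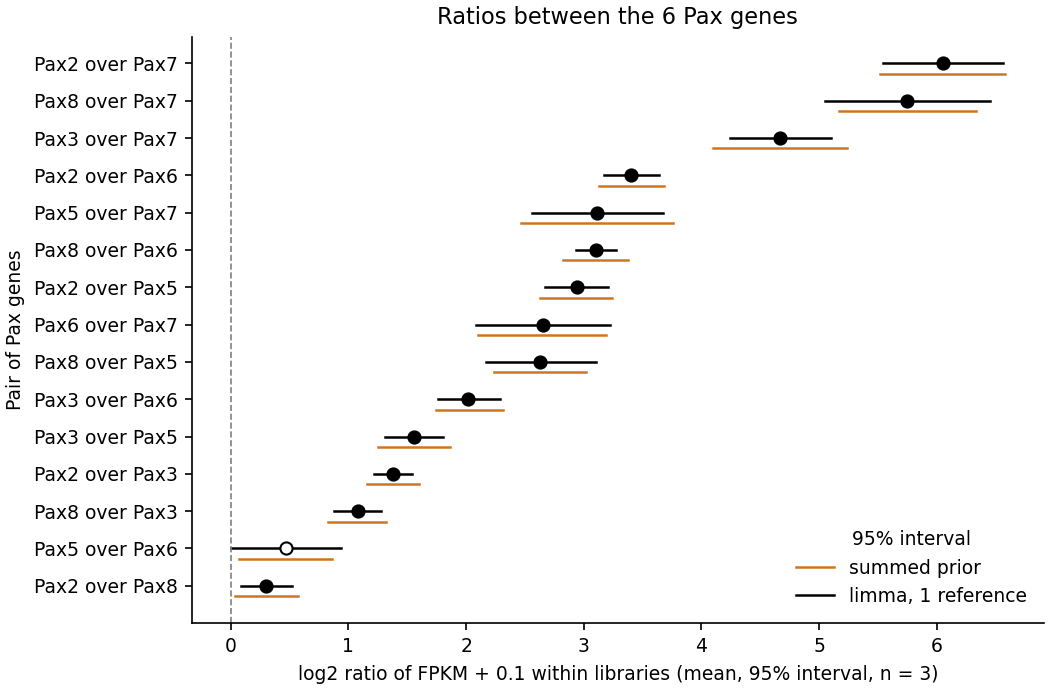
The 15 ratios between the 6 Pax genes, each as the gene with the higher mean over the other. Points are mean log2 ratios over 3 libraries, with 95% intervals from limma with 1 reference gene in black and from the summed prior in orange, filled where the adjusted p with 1 reference gene was under 0.05; the open point is Pax5 over Pax6, whose orange interval lies above 0, and Pax2 over Pax8 is the smallest ratio at 0.30.

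Among the genes that act with Pax2 in the inhibitory dI4 class, Lbx1 and Lhx5 stood nearest its level. Of 7 matched dI4 and inhibitory factors, 6 lay above 1 FPKM, with a median of 30.3 FPKM. Lbx1, a homeodomain factor of dI4 to dI6, had 27.14, 34.28 and 27.98 FPKM, and Lhx5, a LIM homeodomain factor, had 25.30, 35.36 and 30.36. Both ranges enclosed the level of Pax2. The ratio of Lbx1 to Pax2 was 0.953 (0.837 to 1.08, limma's adjusted p = 0.418) and that of Lhx5 to Pax2 0.966 (0.834 to 1.12, limma's adjusted p = 0.608). Without library 2, Lbx1 fell below Pax2 by 0.17 on the log2 scale (limma's adjusted p = 0.00760).

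In the fit of ratios to Pax2, 3 of the 7 factors were higher than Pax2 and 2 were lower, while 13.0% of all entries were higher and 82.6% lower. Lhx1, the LIM homeodomain relative of Lhx5, exceeded Pax2 by 2.23-fold (2.01 to 2.48, limma's adjusted p = 3.51e-07). Tfap2b, an AP-2 factor of inhibitory precursors, exceeded it by 1.30-fold (1.16 to 1.47) and Gbx2, a homeodomain factor, by 1.25-fold (1.10 to 1.41). The calls of Tfap2b and Gbx2 were lost at a margin of 1.5-fold. Prdm13, a zinc finger protein that works with Ptf1a, had 3.60, 3.62 and 3.51 FPKM. Ptf1a, the bHLH factor that acts before Pax2 in inhibitory precursors, was listed at 0.19, 0 and 0.08 FPKM. Pax2, Lbx1, Lhx1 and Lhx5 were present with Ptf1a near 0, and which cell classes gave these transcripts is not known. Lbx1 and Lhx5, like Pax8, were highest in library 2, with log2 deviations of 0.21 and 0.25 there after the median of all entries was subtracted. The median deviation of the 7 factors was 0.11, with Lhx1 at 0 and Prdm13 at -0.08. Outside the list, Fabp7 (0.34) and Olig3 (0.24) were also high there, while Gad1 (-0.45) was low. Whether a shared composition of that library has a part in the Pax8 value was not tested.

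The transmitter genes of inhibitory neurons were compared with Pax2 in the same way. All 4 reported here lay above 1 FPKM, 1 was higher than Pax2 and 3 were lower, with a median log2 ratio of -1.05, beside -2.69 over all entries. Of all entries, 13.0% were higher than Pax2 and 82.6% lower. Slc32a1, the vesicular transporter for GABA and glycine, had 43.62, 49.69 and 49.64 FPKM and exceeded Pax2 by 1.53-fold (1.37 to 1.70, limma's adjusted p = 3.26e-05), a call lost at a margin of 1.5-fold. Gad2 and Gad1, which make GABA, had 22.5 ± 2.29 and 10.1 ± 1.82 FPKM. Slc6a5, the membrane transporter for glycine, had 7.95 ± 0.891 FPKM. Gad1 and Slc6a5, like Pax5, were lowest in library 2, at 8.56 and 7.24 FPKM.

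Genes of dorsal excitatory classes, which in the cord are kept apart from Pax2, were read in the same libraries. Of 8 genes, 6 lay above 1 FPKM, 2 were higher than Pax2 and 6 lower, with a median log2 ratio to Pax2 of -1.19. Of all tested entries, 63.7% lay above 1 FPKM, 13.0% were higher than Pax2 and 82.6% lower, with a median log2 ratio of -2.69. Pou4f1, a POU factor of several dorsal classes, exceeded Pax2 by 1.99-fold (1.79 to 2.20, limma's adjusted p = 7.49e-07) and Slc17a6, the vesicular glutamate transporter, by 1.27-fold (1.15 to 1.40). Tlx3, a selector of the glutamate type in dI3 and dI5, had 18.75, 24.47 and 22.32 FPKM, all below Pax2. Its ratio to Pax2 was 0.699 (0.613 to 0.797), and Lmx1b, a dI5 factor, had a ratio of 0.469 (0.394 to 0.560). The calls of Slc17a6 and Tlx3 were lost at a margin of 1.5-fold. Tlx1 had 0.790 ± 0.147 FPKM and Phox2a, a hindbrain and dI5 factor, was listed at 0.23, 0.22 and 0.24.

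Pax2 also marks the dI6, V0 and V1 classes further ventrally. Of 6 genes of those classes, 3 lay above 1 FPKM: Bhlhe22 (3.69 ± 0.640), which is also found in dorsal neurons, and the V0 factors Evx2 (2.95 ± 0.742) and Evx1 (1.70 ± 0.259). En1 of V1 and Dmrt3 of dI6 were listed at 0 in each library, and Wt1 of dI6 at 0, 0.02 and 0 FPKM. The median of the list was 0.852 FPKM.

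**Figure D4:**
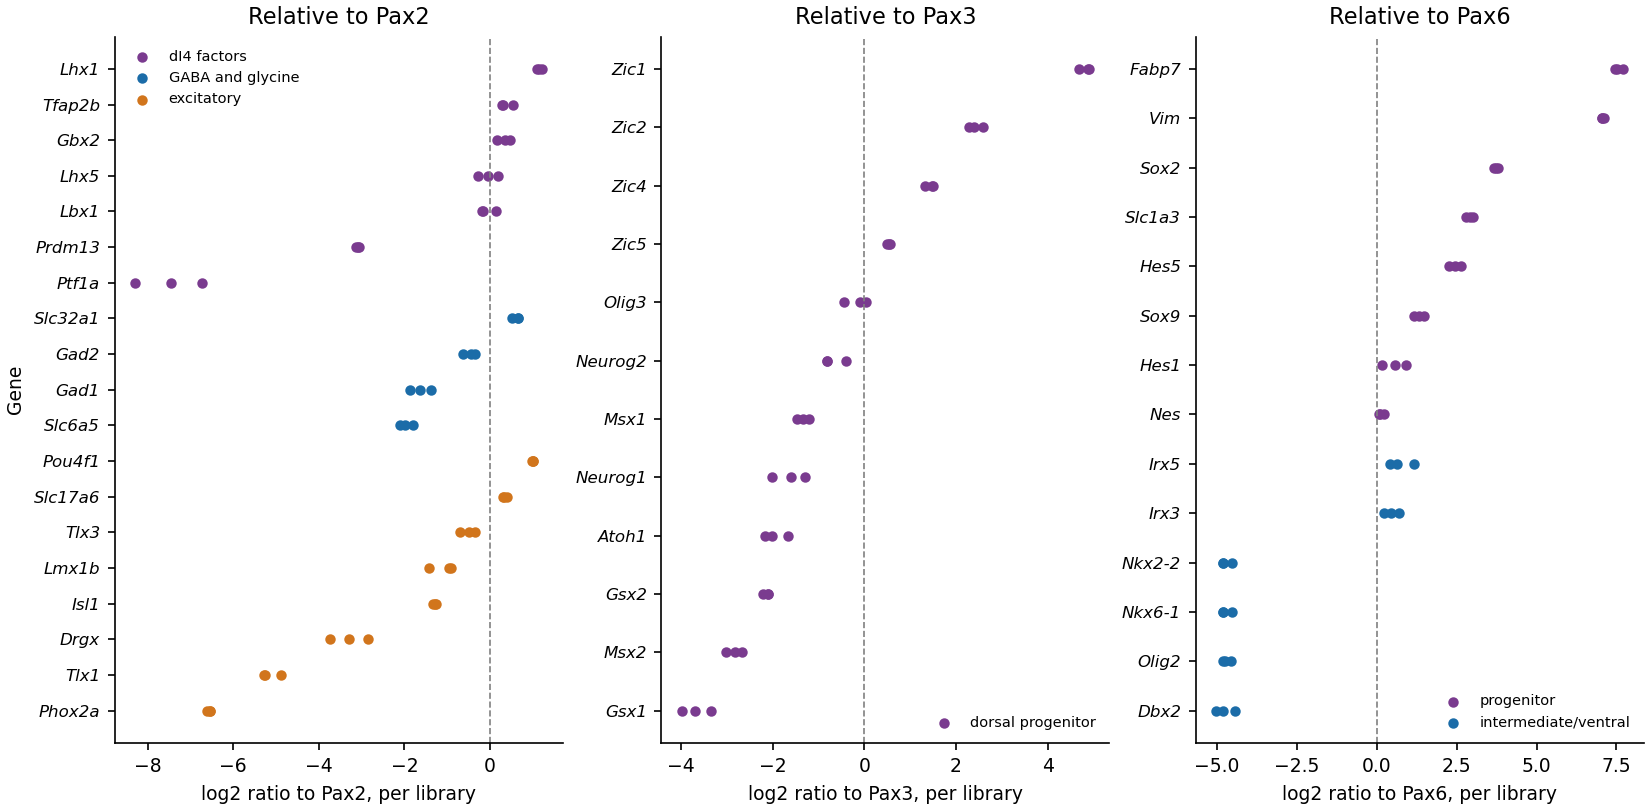
log2 ratios of list genes to Pax2, Pax3 and Pax6 in each library, from FPKM + 0.1; each point is 1 library, colours mark the lists, and genes at 0 in all libraries are left out. Lbx1 and Lhx5 lie on both sides of the Pax2 line, Olig3 on both sides of the Pax3 line, and Nkx2-2, Nkx6-1, Olig2 and Dbx2 lie far below Pax6.

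Pax3 was set beside 12 genes of the dorsal progenitor domain. Of these, 11 lay above 1 FPKM, with a median of 6.09 FPKM, and 4 were higher and 7 lower than Pax3, while 30.2% of all entries were higher and 63.3% lower. With the summed prior the counts were again 4 and 7, beside 29.6% and 63.0% of all entries. The Zic genes, zinc finger factors of the dorsal neural tube, led the list. Zic1 had 330.69, 358.45 and 327.47 FPKM, 28.2 times the level of Pax3, and Zic2 had 64.2 ± 2.10 and Zic4 32.5 ± 2.04 FPKM. Zic5 had 15.85, 17.16 and 18.67 FPKM. It exceeded Pax3 by 1.44-fold (1.24 to 1.67, adjusted p = 5.93e-04 by the moderated test with the summed prior). The call of Zic5 was lost at a margin of 1.5-fold.

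The 1 gene of the 12 that did not differ from Pax3 past the threshold was Olig3, a bHLH factor of dI1 to dI3 progenitors. Its ratio was 0.890 (0.737 to 1.08, adjusted p = 0.202 by the moderated test with the summed prior). Olig3 is named here after its values were seen. At the low end were Msx2, a roof plate and dorsal midline factor, at 1.59 ± 0.0839 FPKM and Gsx1, a homeodomain factor of dI3 to dI5 progenitors, at 0.850 ± 0.140, which did not pass the level of 1 FPKM. The level of Pax7 was below that of each of these 12 genes, the lowest of which in any library was Gsx1 at 0.71 FPKM.

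Pax6 was set beside general progenitor genes and beside genes of intermediate and ventral progenitors. Of 8 matched progenitor genes, all lay above 1 FPKM and 7 were higher than Pax6, while 53.5% of all entries were higher and 40.7% lower. Fabp7 and Vim, proteins of radial glia, had 564 ± 106 and 398 ± 27.0 FPKM. Sox2, a factor of neural progenitors, exceeded Pax6 by 13.3-fold (12.3 to 14.3) and the glutamate transporter Slc1a3 by 7.51-fold (6.79 to 8.30). Nes, an intermediate filament of progenitors, had 2.94, 3.33 and 3.18 FPKM and did not differ from Pax6 past the threshold (ratio 1.10, 0.940 to 1.29, limma's adjusted p = 0.188). The call of Hes1, a Notch target, was lost without library 1 (limma's adjusted p = 0.0686) or library 2 (0.111).

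The intermediate and ventral progenitor genes divided sharply. The Iroquois factors Irx5 and Irx3 had 4.89 ± 1.10 and 4.02 ± 0.700 FPKM and were the 2 of 9 genes above 1 FPKM. Irx5 exceeded Pax6 by 1.67-fold (1.27 to 2.18, limma's adjusted p = 0.00467) and Irx3 by 1.38-fold (1.13 to 1.68), and the call of Irx3 was lost without library 1 (limma's adjusted p = 0.0606) or library 2 (0.0602). Sp8, Dbx1 and Nkx6-2 were listed at 0 in each library. Nkx6-1, Nkx2-2 and Olig2, which mark ventral progenitors, each had at most 0.04 FPKM in any library, and Dbx2 at most 0.03. So 4 genes were lower than Pax6 in limma's test and 3 could not be tested. The markers of ventral progenitors were at or near 0 in libraries in which Pax6 had 2.70 to 3.16 FPKM.

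Pax3, Pax7 and Pax6 are known from dividing cells, so proliferation genes were read in the same libraries. All 6 lay above 1 FPKM, with a median of 14.1 FPKM. Pcna, a DNA replication factor, had 69.4 ± 7.49, Cdk1 16.6 ± 2.01, Ccnb1 15.2 ± 1.11 and Top2a 13.0 ± 0.882 FPKM. Mki67 had 4.72, 3.91 and 4.76 FPKM and Bub1 3.75, 4.40 and 4.27. The summed level of the 6 was 114, 134 and 119 FPKM in libraries 1, 2 and 3, and the part of dividing cells in the levels of Pax3 and Pax6 was not tested.

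Pax proteins work with cofactors. Paxip1 links Pax2 to a histone methyltransferase complex, Paxbp1 does so for Pax3 and Pax7, and Tle corepressors bind Pax2 and turn it into a repressor. All 12 cofactor genes lay above 1 FPKM, with a median of 15.3 FPKM. Tle4 was the highest, at 47.92, 49.35 and 48.95 FPKM, above Pax2 in each library. Ash2l (25.2 ± 2.01) and Wdr5 (19.9 ± 0.553), core subunits of the methyltransferase complex, and the corepressor Tle3 (25.1 ± 2.27) followed. Paxip1 had 13.3 ± 0.462 and Paxbp1 17.1 ± 2.30 FPKM; both are named here outside the rule because they bear the Pax name. Tle2 was the lowest at 1.72 ± 0.292 FPKM. Kmt2d, the methyltransferase itself, had 9.41, 3.96 and 8.33 FPKM and was far lower in library 2.

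In the eye, muscle and kidney, Pax genes act with the families of Six5, Eya3 and Dach1. Of 11 such genes reported here, 6 lay above 1 FPKM, with a median of 1.74 FPKM. Dach1, a nuclear corepressor, had 28.3 ± 1.52 FPKM, close to Pax2, and its relative Dach2 had 3.51 ± 0.223. The Eya phosphatases Eya3 and Eya2 had 9.20 ± 0.647 and 6.43 ± 0.574 FPKM. Of the homeodomain genes Six2 to Six6, Six5 was the 1 above 1 FPKM, at 2.62 ± 0.378. Six3 and Six6, eye and forebrain factors, were listed at 0 in each library.

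Markers of other cells that use Pax genes were counted next. Of 6 muscle genes, 0 lay above 1 FPKM by limma, and none reached an unadjusted p under 0.05 (0 genes). Myf5, Myog and Myf6 were listed at 0 in each library, Myod1 at 0.05, 0 and 0, Des at 0.05, 0.05 and 0.07 and Acta1 at 0.49, 0.39 and 0.62 FPKM. The summed level was 0.590, 0.440 and 0.690 FPKM in libraries 1, 2 and 3. Pax3 had at least 10.95 FPKM in the same libraries, and the part of muscle precursors in its level was not tested.

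Of 3 B cell genes, which belong to cells known for Pax5, 0 lay above 1 FPKM by limma, and none reached an unadjusted p under 0.05 (0 genes). Cd79a and Ms4a1 were listed at 0 in each library and Cd79b at 0.23, 0.39 and 0.23 FPKM. Pax5 had at least 3.30 FPKM in the same libraries, and the part of B cells in its level was not tested.

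The neural crest and peripheral glia list passed in 1 of the 4 genes reported here. Ngfr, a neurotrophin receptor found also in central neurons, had 9.01 ± 0.647 FPKM. Sox10, the defining factor of crest and its glia, was listed at 0, 0.03 and 0 FPKM, Erbb3 at 0.03, 0.07 and 0, and Mitf at 0.17, 0.07 and 0.18. The summed level was 8.44 to 9.57 FPKM, nearly all of it from Ngfr. Of the sensory ganglion list, 1 of 2 passed, the peptide gene Calca at 1.71 ± 0.282 FPKM, while Scn10a had 0.0133 ± 0.00577, and the sum was 1.40 to 1.95 FPKM. Of the mesenchyme list, 1 of 5 passed, the collagen gene Col3a1 at 2.27 ± 0.512 FPKM, while Col1a1 had 0.633 ± 0.0379, Pdgfrb 0.343 ± 0.0643 and Foxc1 0.117 ± 0.00577, and Lum was listed at 0, 0 and 0.04. The summed level of the mesenchyme list was 2.94 to 3.82 FPKM. The part of these cells in the level of any Pax gene was not tested.

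The list genes nearest in level to each Pax gene were found by the root mean square difference of log2(FPKM + 0.1) over the 3 libraries, among 106 genes. For Pax2 they were Zic4 (0.09), Dach1 (0.16) and Lbx1 (0.16). For Pax8 they were Tle3 (0.10), Ash2l (0.12) and Gad2 (0.19), and for Pax3 Daxx (0.07), Top2a (0.12) and Isl1 (0.14). Pax5 lay nearest Mki67 (0.20), Dach2 (0.25) and Bub1 (0.26), and Pax6 nearest Nes (0.15), Six5 (0.19) and Atoh1 (0.19). The measure compares levels in 1 kind of sample and says nothing of shared cells.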

How the data were processed

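The deposited file holds FPKM values computed by the authors, 1 column for each library. Build rn6 and the tools STAR, Trimmomatic 0.22 and FastQC are listed in the submitters' processing notes, and per the labels' protocols the libraries were stranded and read as pairs of 50 bp. The tool that computed FPKM, its annotation and its treatment of strand and of reads shared between related genes are, in the sources used here, not given.

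The deposited FPKM values, taken as log2(FPKM + 0.1), were fitted in R 4.3.3 by limma 3.58.1 with statmod 1.5.0, using a robust, trended prior, on the 17611 entries above 0 in at least 1 library. Levels were tested one-sided against 1 FPKM and ratios to a Pax gene two-sided, with Benjamini-Hochberg adjustment over all entries of a fit and a threshold of 0.05. An exact sign-flip test on 3 libraries cannot go below p = 0.25. The test of levels and both ratio tests with Pax2 as reference were checked on simulated data; ratios to the other Pax genes were not simulated. Some list genes are not reported here, and all list counts leave them out. Of the other 109 list genes, 3 (Gbx1, Sox1 and Sox3) matched no symbol and were not analysed here; for Gbx2 and Evx1, which have more than 1 entry, the entry with the higher mean was taken, and the other Gbx2 entry is described in the table as the Gbx1 gene. Named genes are all genes of a list with up to 6 matches, otherwise the 4 highest and 2 lowest, plus the 3 nearest in level to each Pax gene; others are said to be outside this rule, or are given as checks of the label. The members and lists were chosen with earlier results of these data known. Gene positions and sequences were not used here. Python 3.11.15 with pandas 2.3.3 and matplotlib 3.10.9 drew the figures.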

Additional observations from a re-analysis of the deposited data

How the results depend on the processing

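The alternatives were other pseudocounts (0.01 and 1), no filter or a mean of at least 0.1 FPKM, libraries rescaled to a common upper quartile or a common sum over entries up to 10000 FPKM, a plain prior, levels of 0.5 and 5 FPKM, a margin of 1.5-fold, each library left out and, added after the data were seen, the prior summed from both genes. Rescaling moved no library by more than 0.10 on the log2 scale. No ratio past the threshold changed its direction. With any 1 library left out, 5 Pax genes lay above 1 FPKM, 13 to 15 pairs differed, and 67 of 106 list genes lay above 1 FPKM, the same number as with all libraries. At a level of 5 FPKM, 3 Pax genes and 44 list genes passed, among them 6 dorsal progenitor genes, 3 genes of the Six5, Eya3 and Dach1 families and 1 neural crest gene, and 0 each of the intermediate and ventral progenitor, ventral class, sensory ganglion and mesenchyme lists. At a margin of 1.5-fold, 1 dI4 factor, 0 transmitter genes of inhibitory neurons and 1 excitatory gene were higher than Pax2, 3 dorsal progenitor genes were higher than Pax3, and 0 intermediate and ventral genes were higher than Pax6. Of the intermediate and ventral genes, 7 were lower than Pax6 without a filter and 0 with a mean of at least 0.1 FPKM, by the number of genes tested. With that mean, 1 dI4 factor was lower than Pax2. Leaving out 1 library gave 1 to 2 intermediate and ventral genes higher than Pax6 and 2 to 4 lower. No paired analysis was possible because there is 1 group. FPKM values do not show the depth, so how far counting error limits Pax7 and the genes near 0 is not known.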
